A study of Homo sapiens with 6 samples.

Results

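Epithelial-mesenchymal transition (EMT) was followed through 10 genes: the epithelial markers *CDH1* and *EPCAM*, the mesenchymal markers *CDH2*, *VIM* and *FN1*, and the EMT transcription factors *ZEB1*, *ZEB2*, *SNAI1*, *SNAI2* and *TWIST1*. They were chosen by name, and all 10 of 10 have a row among the 62710 genes of the expression table. The cells were H526, an established small cell lung cancer (SCLC) line. The parental cells (3 libraries, numbered 1 to 3) were compared with a resistant line (3 libraries, numbered 7 to 9) that had been taken over a year from 10 nM to 75 nM onvansertib, an oral inhibitor of polo-like kinase 1. Both were kept in RPMI-1640 with fetal bovine serum, and RNA was harvested at 3 separate times from each. The resistant cells are a single line, so its differences from the parental cells are those of that line, and p-values measure the spread between harvests and not between independently derived resistant lines. The question for these genes was whether the cells that acquired onvansertib resistance differ from their parental cells in epithelial or mesenchymal expression.

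Epithelial cells hold together through E-cadherin, encoded by *CDH1*, at adherens junctions, together with desmosomes and tight junctions, and carry keratin filaments. In EMT, factors of the ZEB, SNAIL and TWIST families bind E-boxes, short DNA motifs, in the promoters of epithelial genes such as *CDH1* and repress them, while N-cadherin, vimentin and fibronectin rise. The ZEB factors and the miR-200 microRNAs repress each other. SCLC is mostly neuroendocrine, and its POU2F3 type resembles tuft cells, a chemosensory epithelial cell.

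In these libraries the epithelial markers were, per length, among the highest-expressed genes in both groups, and the mesenchymal markers and factors ranged from the middle of the expressed genes to absent. *CDH1* was at 17688 ± 1346 (SD, n = 3) in parental and 18031 ± 1045 (SD, n = 3) in resistant cells. *ZEB2* fell to 10.2% and *CDH2* to 57.3% of their parental means. *VIM* was higher in resistant cells, from a parental level near the detection limit to a mean of 26.8, and *SNAI1* was higher in all 3 resistant libraries without passing the test. *EPCAM* was at 85.3% of its parental mean in resistant cells. In bulk RNA a change in the share of cells that express a gene and a change in RNA per cell cannot be told apart, which holds for every gene here.

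All values are read counts after the authors' normalization with DESeq2, with no unit, and comparable between libraries. The depth they imply was 25730768 to 28512623 reads in parental and 22370830 to 23268671 reads in resistant libraries, so that 3 reads, taken as the limit of detection, stood for 2.67 to 2.93 in parental and 3.12 to 3.22 in resistant libraries. This limit covers counting error only. The test was limma's, run on every gene that averaged 10 or more across the 6 libraries and carried out on log2(value + 1), with Benjamini-Hochberg adjustment over all 16347 such genes and a threshold of 0.05 (adjusted p). Of these genes, 37.7% passed: 17.8% were higher and 19.8% lower in resistant cells. The parental and resistant values did not overlap in 8155 of the 16347 genes, so a lack of overlap on its own is common here. Of the 10 members, 7 could be tested, 1 was higher, 3 were lower and 3 did not pass. The other 3 (*ZEB1*, *SNAI2* and *TWIST1*) were under the minimum mean. Permuting the 6 libraries exactly (two-sided) gives a single gene p = 0.1 at the least, so that test cannot pass 0.05 here. The tuft cell factor *POU2F3* was between 24511 and 27873 in every library, and all 7 of the tested genes of a list of 9 neuroendocrine markers were lower in resistant cells.

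**Figure D1:**
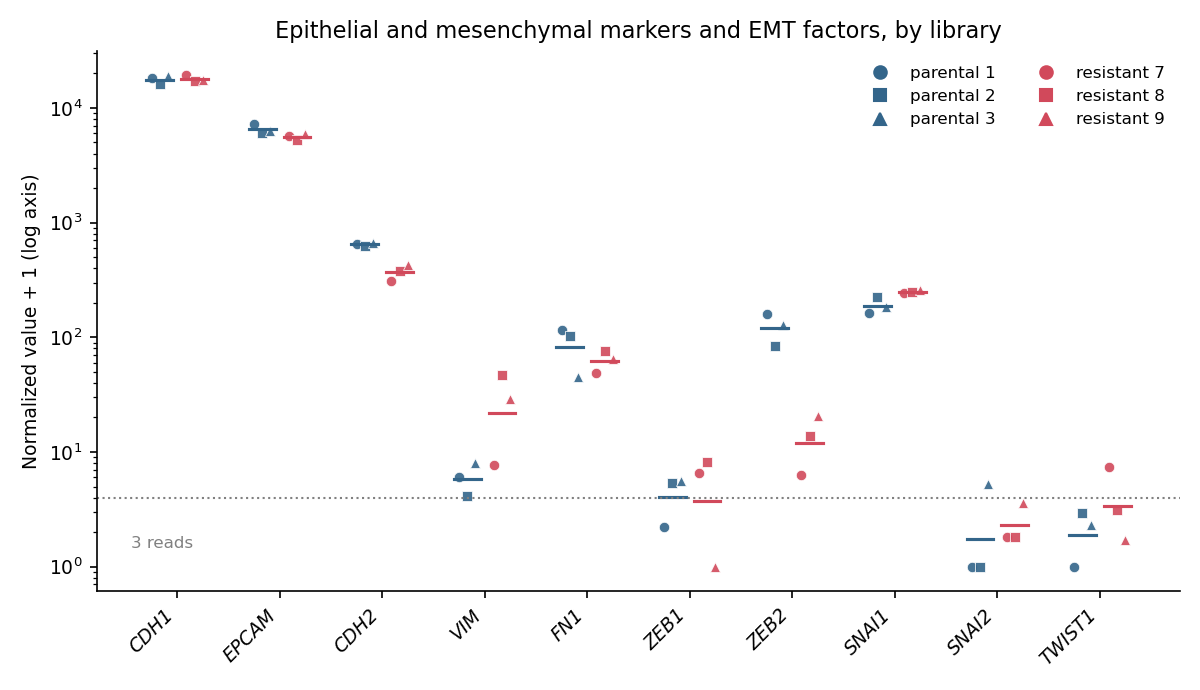
Value of the 10 genes in each library (log axis, normalized value + 1), with parental libraries in blue, resistant libraries in red, and a short line at each group's geometric mean. The dotted line marks 3 reads. *CDH1* lies between 16185 and 19229 in every library, *ZEB2* is separated between the groups, and *ZEB1*, *SNAI2* and *TWIST1* lie around the limit.

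In the normalized values, E-cadherin RNA showed no change beyond the spread between libraries. *CDH1* (ENSG00000039068, chr16:68737292-68835537, plus strand, GRCh38) was at 18096, 16185 and 18783 in parental libraries 1 to 3 and at 19229, 17302 and 17562 in resistant libraries 7 to 9. The groups overlapped in these values, with a log2 fold change of 0.03 ± 0.07 (SE) and an adjusted p of 0.784 (limma). The 95% interval ran from -0.13 to 0.19 and covers only the spread between harvests under this scaling. With quantile normalization the log2 fold change was 0.13 (adjusted p = 0.112, limma). *EPCAM* (ENSG00000119888, chr2:47345158-47387601, plus strand) encodes an adhesion molecule of epithelial and carcinoma cells. It was at 7299, 6077 and 6345 in parental and at 5668, 5273 and 5873 in resistant libraries. In these normalized values every resistant library was below every parental library. The log2 fold change of -0.23 ± 0.08 (SE) passed with an adjusted p of 0.0441 (limma; exact permutation p = 0.1). This call was lost when parental library 1 (adjusted p = 0.12, limma), parental library 3 (0.0768), resistant library 7 (0.0858) or resistant library 8 (0.144) was left out. It was kept in 5 of 14 alternative analyses, with adjusted p between 0.0275 and 0.144.

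The mesenchymal markers did not move together. *CDH2* (ENSG00000170558, chr18:27932879-28177946, minus strand) encodes N-cadherin, the cadherin of neural and mesenchymal cells. It was at 654, 627 and 659 in parental libraries and at 310, 374 and 428 in resistant libraries. All resistant libraries lay well below the parental ones, which hardly differed among themselves, and the mean fell from 647 ± 17.5 to 371 ± 58.9 (SD, n = 3 each). The log2 fold change was -0.81 ± 0.13 (SE; adjusted p = 0.000699, limma). It passed in 14 of 14 alternatives, with a log2 fold change between -0.92 and -0.69.

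*VIM* (ENSG00000026025, chr10:17228241-17237593, plus strand) encodes vimentin, the intermediate filament of mesenchymal cells. Its values were 5.05, 3.13 and 6.95 in parental libraries and 6.76, 45.8 and 27.7 in resistant libraries. Resistant library 7 was below parental library 3, so the groups overlapped, and the rise stood in resistant libraries 8 and 9. The means were 5.04 ± 1.91 and 26.8 ± 19.5 (SD, n = 3 each), and the log2 fold change of 1.91 ± 0.65 (SE) passed narrowly (adjusted p = 0.0427, limma; exact permutation p = 0.2). Without parental library 1, 2 or 3 the adjusted p was 0.0861, 0.106 or 0.0595, without resistant library 9 it was 0.125, and without resistant library 8 the gene was under the minimum mean. Without resistant library 7 it was 0.00492, with a log2 fold change of 2.65. Only 5 of the 12 alternatives that tested it kept the call.

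Fibronectin, an extracellular matrix protein encoded by *FN1* (ENSG00000115414, chr2:215360440-215436073, minus strand), was at 116, 103 and 43.8 in parental and 47.8, 74.8 and 64.2 in resistant libraries. Parental library 3 was below all resistant libraries and the other two were above them. The log2 fold change of -0.39 ± 0.36 (SE) did not pass (adjusted p = 0.421, limma), and its 95% interval ran from -1.18 to 0.40. Without parental library 3 the log2 fold change was -0.82 with an adjusted p of 0.0455, so 1 parental library decided this result.

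Among the factors, *ZEB2* (ENSG00000169554, chr2:144364364-144521057, minus strand), a zinc finger repressor of *CDH1*, gave the largest change of the 7 tested members. It was at 157, 83.4 and 127 in parental libraries and at 5.25, 12.7 and 19.4 in resistant libraries. The lowest parental library was above the highest resistant library, and the means of 123 ± 37.0 and 12.4 ± 7.08 (SD, n = 3 each) differed by 9.85-fold. The log2 fold change was -3.31 ± 0.44 (SE; adjusted p = 0.000263, limma), and the gene passed in 14 of 14 alternatives, between -3.69 and -2.57. *CDH1*, which ZEB2 is known to repress, had a log2 fold change of 0.03 in the same libraries.

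*SNAI1* (ENSG00000124216, chr20:49982980-49988886, plus strand) encodes SNAIL, a further repressor of *CDH1*. Its values were 160, 223 and 183 in parental and 242, 246 and 258 in resistant libraries. The resistant libraries were close to each other and all above the parental ones. The log2 fold change was 0.41 ± 0.15 (SE), with a 95% interval of 0.07 to 0.75 and an adjusted p of 0.0597 (limma; exact permutation p = 0.1). It passed in 2 of 14 alternatives, with upper-quartile scaling (adjusted p = 0.0426) and without parental library 2 (0.0252).

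The remaining factors were at the limit of detection in both groups. *ZEB1* (ENSG00000148516, chr10:31318495-31529814, plus strand), the paralog of *ZEB2*, was at 1.21, 4.38 and 4.57 in parental and at 5.51, 7.26 and 0 in resistant libraries, and 2 of 6 libraries were at or under 3 reads. *SNAI2*, which encodes SLUG, was at 0, 0 and 4.24 in parental and at 0.833, 0.83 and 2.58 in resistant libraries. *TWIST1*, a basic helix-loop-helix factor, was at 0, 1.94 and 1.31 in parental and at 6.33, 2.09 and 0.72 in resistant libraries. For *SNAI2* and *TWIST1*, 5 of 6 libraries each were at or under 3 reads, and no difference was detectable at this depth.

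**Figure D2:**
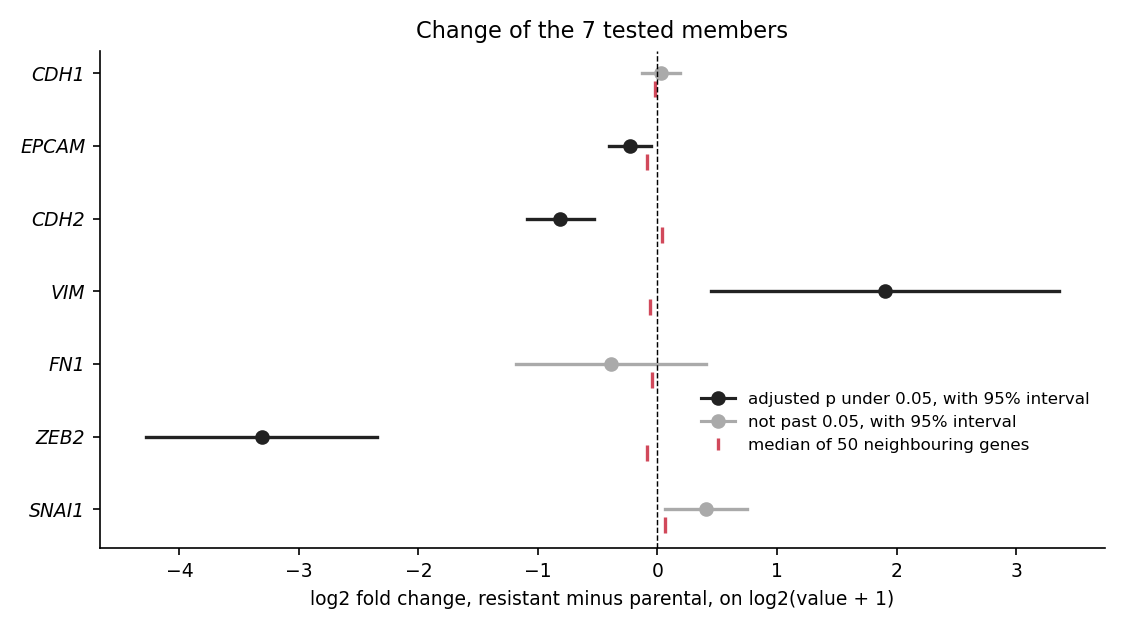
Log2 fold change (resistant minus parental, on log2(value + 1)) of the 7 tested genes with its 95% interval, black where the adjusted p was under 0.05 and grey where not. Red ticks give the median log2 fold change of the 50 nearest tested genes, which stays between -0.09 and 0.06 for these 7. *ZEB2* and *CDH2* lie to the left and *VIM*, with the widest interval above 0, to the right.

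The library kit does not mark strand, so reads of a gene and of a transcript on its opposite strand cannot be told apart. *VIM-AS1* was listed at 0 in all 6 libraries, and *ZEB2-AS1* was at most 2.17. *ZEB1-AS1* was at 42.5 ± 10.3 in parental and 62 ± 25.5 in resistant cells (SD, n = 3 each), and did not pass (adjusted p = 0.288, limma). *EPCAM-DT*, transcribed away from *EPCAM*, was at 4.41, 5.26 and 0.971 in parental and at 10.4, 16.5 and 16.2 in resistant libraries, the opposite direction to *EPCAM*, and was under the minimum mean. On the chromosome, the 50 tested genes nearest to each of the 10 members had a median log2 fold change between -0.09 and 0.06.

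To set the genes beside each other, values were divided by the length of the longest annotated transcript and scaled to a sum of 1000000 per library. On this scale *CDH1* was at 449 ± 32.2 and *EPCAM* at 520 ± 55 in parental cells, above 98.2% and 98.3% of the tested genes over the 6 libraries. In resistant cells *CDH1* (502 ± 24.2) and *EPCAM* (485 ± 10.4) did not differ beyond their spread. *CDH2* came next in parental cells at 19.7 ± 0.505, followed by *SNAI1* at 13.5 ± 2.24. In resistant cells *SNAI1* was at 19.6 ± 0.753 and *CDH2* at 12.4 ± 1.97, so the order of these genes turned. *ZEB2* (1.56 ± 0.480) and *FN1* (1.17 ± 0.522) did not differ beyond their spread in parental cells, and *VIM* was at 0.231 ± 0.0852. In resistant cells *VIM* (1.37 ± 1.03) and *FN1* (0.914 ± 0.227) overlapped, and *ZEB2* was at 0.174 ± 0.0969 (SD, n = 3 for all). The order depends on the length taken. With the shortest protein-coding transcript, which for *ZEB2* is a fragment of 100 bases, *ZEB2* was at 31.1 ± 9.11 in parental cells and *CDH2* stayed above *SNAI1* in both groups. The ratio of *CDH1* to *CDH2* per length was 23.1, 21.6 and 23.8 in parental libraries and 51.8, 38.7 and 34.3 in resistant libraries. It was higher in all resistant libraries, and with the shortest transcripts it was 7.88 ± 0.393 and 14.4 ± 3.14 (SD, n = 3 each).

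RefSeq promoters (GRCh38.p14) were at hand for 5 of the 10 members, *CDH2*, *VIM*, *FN1*, *ZEB1* and *ZEB2*, and not for *CDH1*, *EPCAM*, *SNAI1*, *SNAI2* and *TWIST1*. They were searched for CAGGTG, the E-box of the ZEB and SNAIL factors, on both strands, and for CANNTG, any E-box, which includes it. The 250 bases before the start of transcription are shown for the 3 of these genes that passed the test, 5′ to 3′ on the strand of the gene, with E-boxes in capitals. They lie at chr2:144520120-144520369 (minus strand) for *ZEB2*, at chr18:28177131-28177380 (minus strand) for the first of 2 *CDH2* windows, and at chr10:17227991-17228240 (plus strand) for *VIM*.
ZEB2: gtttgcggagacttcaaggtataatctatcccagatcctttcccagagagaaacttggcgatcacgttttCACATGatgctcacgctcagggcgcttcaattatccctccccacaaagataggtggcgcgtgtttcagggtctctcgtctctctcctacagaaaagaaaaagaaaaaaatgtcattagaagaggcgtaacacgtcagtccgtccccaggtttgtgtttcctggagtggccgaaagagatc
CDH2: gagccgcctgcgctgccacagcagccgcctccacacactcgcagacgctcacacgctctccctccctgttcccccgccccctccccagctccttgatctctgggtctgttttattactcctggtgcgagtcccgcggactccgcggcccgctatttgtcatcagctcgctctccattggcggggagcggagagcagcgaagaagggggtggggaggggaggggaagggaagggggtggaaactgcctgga
VIM: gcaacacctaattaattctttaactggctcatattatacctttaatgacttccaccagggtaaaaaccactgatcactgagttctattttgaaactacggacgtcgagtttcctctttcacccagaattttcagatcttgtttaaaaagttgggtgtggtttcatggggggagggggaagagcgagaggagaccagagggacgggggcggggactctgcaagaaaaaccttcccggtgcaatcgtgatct
The only E-box in these 3 windows is CACATG in *ZEB2*, and none holds CAGGTG. Of all 35116 windows of this length, 17.5% hold CAGGTG and 61.8% hold CANNTG. The second *CDH2* window holds CAGATG, the *FN1* window has no E-box, and 2 of the 7 windows of *ZEB1* hold CAGGTG. A match is a description of these letters and not a binding site.

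The wider programme was described with a list of 118 genes in 8 roles, chosen with earlier results of these data known. Of these, 96 were tested, 32 were higher, 20 were lower and 44 did not pass, or 54.2% passed in either direction beside 37.7% of all genes tested. The median log2 fold change was 0.05, beside 0.00 over all genes. With upper-quartile scaling 37 were higher and 13 lower. Epithelial and mesenchymal roles each held genes that rose and genes that fell. The share of tested genes that passed was 36.4% in the TGF-beta pathway, and 44.4% in both the epithelial regulators and the other EMT factors. It was 46.2% in the mesenchymal matrix and 63.6% in both the epithelial junctions and the mesenchymal cytoskeleton and adhesion genes. The keratins had 66.7% and the corepressors 77.8%.

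Of 22 tested epithelial junction proteins, 9 were higher and 5 were lower. Without parental library 3 the number higher was 5, and without parental library 2, resistant library 7 or resistant library 8 the number lower was 3. The groups within this role were made after their values were seen. Among 6 desmosome genes, 5 were higher, of which *DSC2*, *DSP* and *DSG2* passed without each library in turn and relative to their neighbours. *JUP* and *PKP2* did not, so that 3 were higher without parental library 3, resistant library 7 or resistant library 9. *DSC2*, a desmosomal cadherin, was at 340, 342 and 311 in parental and 912, 898 and 956 in resistant libraries, 2.78-fold higher with no overlap (log2 fold change 1.475 ± 0.09, SE; adjusted p = 3.03e-06, limma). *DSP*, which encodes desmoplakin, rose from 17816 ± 977 to 23569 ± 2954, and *DSG2* from 3847 ± 43 to 4600 ± 203 (SD, n = 3 each). The 4 claudins, the sealing proteins of tight junctions, passed as lower, but relative to their neighbours *CLDN1* alone did. *CLDN3* was then at -0.10 (adjusted p = 0.506, limma) and *CLDN7* at -0.12 (0.304), and *CLDN7* was also lost without parental library 1, 2 or 3 or resistant library 7 or 8 (0.0555 to 0.124). *CLDN1* was at 97.2, 59.2 and 60.9 in parental and 21.9, 20.8 and 27 in resistant libraries (log2 fold change -1.57 ± 0.29, SE; adjusted p = 0.00203, limma). *CLDN4* fell from 4454 ± 625 to 2940 ± 194 (SD, n = 3 each), a log2 fold change of -0.59. The 50 tested genes nearest to *CLDN4* had a median log2 fold change of -0.51, and with each gene taken relative to its neighbours *CLDN4* was at -0.09 (adjusted p = 0.504, limma). Of 8 other tight junction and polarity genes, 3 were higher and 0 lower. The share that passed, 37.5%, was near the 37.7% of all genes tested. *OCLN* (1.33-fold; adjusted p = 0.00324, limma) and *MARVELD2* (1.43-fold; 0.004) passed in every alternative. *TJP3* (1.66-fold; 0.028) lost its call in 6. The catenins, which tie cadherins to actin, divided: *CTNND1* was higher (log2 fold change 0.34; adjusted p = 0.0127, limma), a call lost without parental library 3 (0.0571). *CTNNB1* was lower (-0.20; 0.021), a call lost without parental library 2 (0.0678) or resistant library 7 (0.0628) or 8 (0.0656), and *CTNNA1* did not pass (0.07).

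*KRT8* and *KRT18* encode the keratin pair of simple epithelia. *KRT8* was at 14871 ± 658 in parental and 12783 ± 1000 in resistant cells and *KRT18* at 9214 ± 414 and 8282 ± 676 (SD, n = 3 each). *KRT8* passed as lower (log2 fold change -0.22; adjusted p = 0.0316, limma) and *KRT18* did not (-0.16; 0.112), but their neighbours had a median of -0.67, and relative to these both were higher, by 0.41 and 0.48. The *KRT8* call was also lost without parental library 1 (adjusted p = 0.086), parental library 3 (0.0647) or resistant library 8 (0.11). *KRT19* was at 239, 264 and 237 in parental and 533, 409 and 420 in resistant libraries, 1.84-fold higher with no overlap (adjusted p = 0.000699, limma). *KRT7*, under the minimum mean, was at 3.29, 3.03 and 0.742 in resistant libraries and listed at 0 in each parental one, and *KRT14* was listed at 0 in all libraries.

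The 18 genes listed as epithelial regulators include some that are not transcription factors, such as *CDS1*, *PRSS8* and *SPINT2*. Of the 18, 6 were higher and 2 lower. Without parental library 3, 4 were higher, *GRHL3* and *PRSS8* being lost. *EHF*, an ETS factor of epithelial cells, was at 4287, 4122 and 4144 in parental and 8676, 10408 and 10655 in resistant libraries, 2.37-fold higher (log2 fold change 1.24 ± 0.08, SE; adjusted p = 3.29e-06, limma). *KLF5* (1.53-fold) and *CDS1* (1.46-fold) were higher too, as was *GRHL2*, a factor that maintains *CDH1* expression, from 2340 ± 338 to 3616 ± 643 (SD, n = 3 each; adjusted p = 0.00441, limma). Relative to its neighbours *CDS1* did not pass (log2 fold change 0.28; adjusted p = 0.0608). *KLF4* fell by 0.42 on the log2 scale, and relative to its neighbours it was at -0.09 and did not pass (adjusted p = 0.476, limma). *SPINT2*, the other gene lower, fell from 12543 ± 188 to 9688 ± 664 (SD, n = 3 each; adjusted p = 0.00117, limma). It passed in every alternative. *ESRP1*, the splicing factor of epithelial cells, was at 4255 ± 247 and 4148 ± 94.7 (SD, n = 3 each; adjusted p = 0.702, limma). *MIR200CHG*, the host transcript of 2 of the miR-200 microRNAs, was between 5.40 and 17.7 in all libraries and did not pass.

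**Figure D3:**
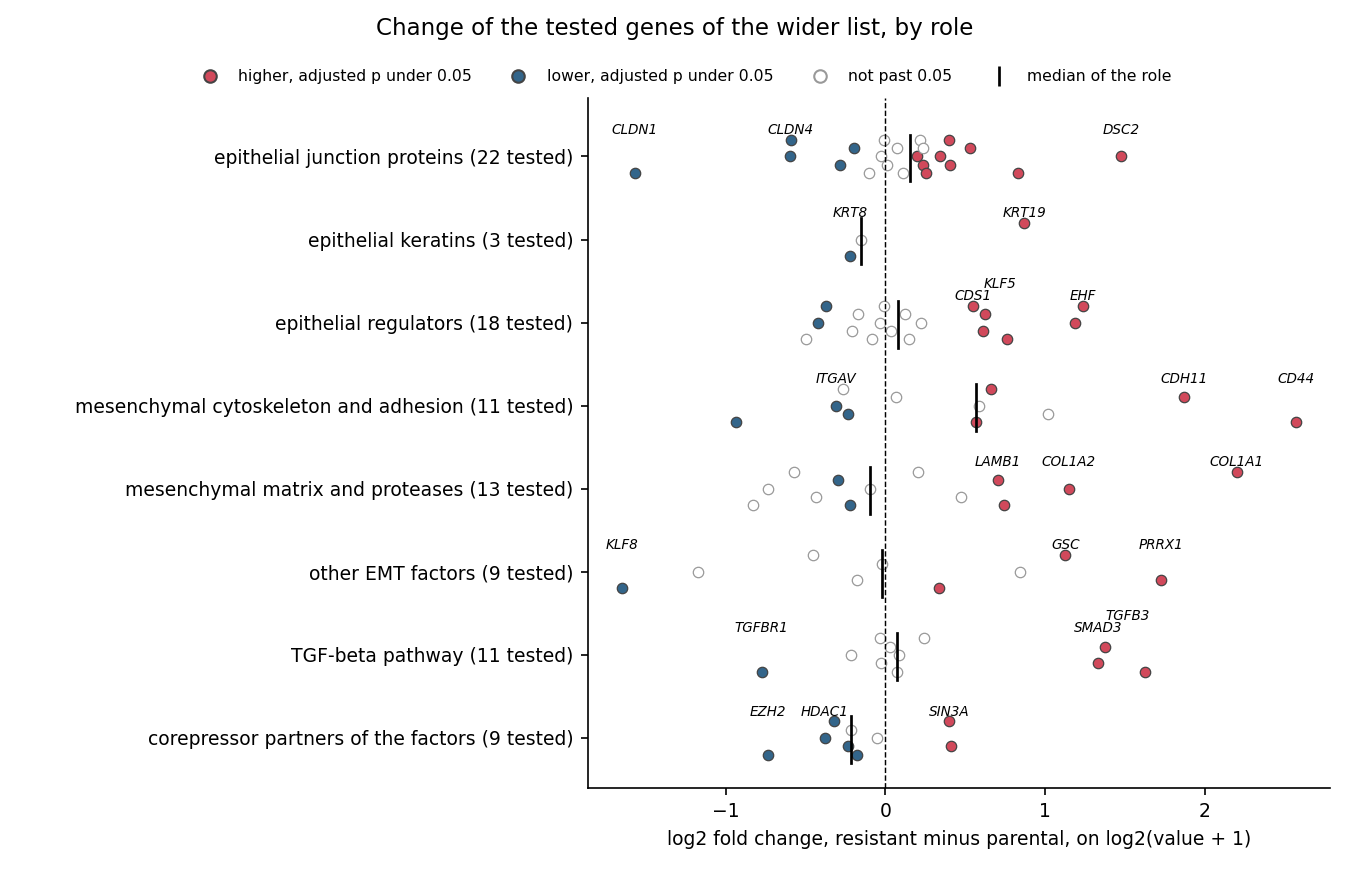
Log2 fold change (resistant minus parental, on log2(value + 1)) of the 96 tested genes of the wider list, in rows by role. Red points were higher and blue points lower at an adjusted p under 0.05, open points did not pass, black bars are the medians of the roles, and the names mark the 3 or fewer genes of lowest p that passed in each role. Points lie on both sides of 0 in all 8 roles.

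Mesenchymal genes of the cytoskeleton and adhesion (16 genes, 11 tested) were higher in 4 cases and lower in 3. Without parental library 1 or 3 or resistant library 7 or 8, *ITGAV* was the 1 gene lower, *ITGB1* and *S100A4* being lost. Of the 4 higher, *TPM2* lost its call in 7 alternatives. *TPM1* was at 0.17 relative to its neighbours and did not pass there (adjusted p = 0.369, limma). *CD44*, a hyaluronan receptor, was at 20.5, 6.07 and 11 in parental and 79.0, 64.4 and 72.6 in resistant libraries, with no overlap (log2 fold change 2.57 ± 0.41, SE; adjusted p = 0.000776, limma). *CDH11*, a mesenchymal cadherin, was at 14.5, 19.6 and 43.5 in parental and 69.0, 97.7 and 99.8 in resistant libraries (1.87 ± 0.38; 0.00367). The integrin gene *ITGAV* was lower, at 80.6% of its parental mean of 3050 ± 129 (SD, n = 3). *TAGLN*, of smooth muscle and myofibroblasts, was at 37.7 ± 4.87 and 39.6 ± 6.58 and did not pass. *MSN*, encoding moesin, was at or under 3 reads and *AXL*, a receptor kinase, at 0 in all libraries.

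Of 20 genes of the mesenchymal matrix, 13 were tested, 4 were higher and 2 lower (*COL4A1* and *COL4A2*). The number lower was 0 without parental library 2 or resistant library 7 and 1 without parental library 1 or 3 or resistant library 8. The number higher was 3 without parental library 1 or 3 or resistant library 7 or 9, *COL6A3* being lost. *COL6A3* was at 104.5, 142.4 and 92.4 in parental and 258.5, 141.9 and 178.2 in resistant libraries, with overlap. It lost its call in 6 alternatives. *COL1A1*, a chain of type I collagen, was at 42, 52.9 and 84.2 in parental and 229, 293 and 284 in resistant libraries, 4.50-fold higher (log2 fold change 2.20 ± 0.25, SE; adjusted p = 0.000108, limma). The other chain, *COL1A2*, rose 2.34-fold (adjusted p = 0.0086), and *LAMB1*, a laminin chain, 1.6-fold (0.00341). *COL4A1*, a collagen of the basement membrane, was lower (log2 fold change -0.30; adjusted p = 0.0161, limma), a call lost without parental library 2 (0.0538) or 3 (0.0588) or resistant library 7 (0.0644). *MMP2*, *MMP9*, *MMP14* and *SPARC* were among those under the minimum mean. Of 9 fibroblast markers, 3 were higher (*COL1A1*, *COL1A2* and *PDGFRA*). Without *THY1*, which was at 3343 to 4105 in all 6 libraries, the markers summed to 156 to 197 in parental and 468 to 668 in resistant libraries, and without both collagen chains as well to 20.5 to 59.4 and 85.7 to 110. Of the markers left in that last sum, *PDGFRA* was at 8.98 ± 3.46 in parental and 69.8 ± 24.5 in resistant cells (SD, n = 3 each). *COL3A1* was at 18 ± 7.07 and 10.6 ± 4.33 and did not pass. *LUM* (6.27 and 4.74) and *PDGFRB* (4.1 and 13.6) were under the minimum mean. *FAP* was at 0 and *DCN* at or under 3 reads in every library. The part of any such cells in the higher *VIM*, *COL1A1* and *COL1A2* was not tested.

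Other EMT factors (12 genes, 9 tested) gave 3 higher and 1 lower. Without resistant library 9 they gave 1 higher (*PRRX1*) and 2 lower. *PRRX1*, a homeobox factor of mesenchyme, was at 107, 82.2 and 66.1 in parental and 287, 291 and 261 in resistant libraries, 3.28-fold higher (log2 fold change 1.73 ± 0.19, SE; adjusted p = 9.83e-05, limma). *KLF8* was at 180, 147 and 124 in parental and 56.9, 36.3 and 49.0 in resistant libraries (-1.65 ± 0.24; 0.000458), the same direction as *ZEB2*. *GSC* rose from 21.9 ± 5.65 to 48.2 ± 5.42 (SD, n = 3 each; adjusted p = 0.0155, limma), a call lost without resistant library 9 (0.0571) and relative to its neighbours (0.0895). *TCF4*, an E-protein, was at 1421 ± 117 and 1396 ± 18.2 and did not pass.

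In the TGF-beta pathway, which induces EMT through SMAD2 and SMAD3, 11 of 14 genes were tested, 3 were higher and 1 lower. The share that passed, 36.4%, was near the 37.7% of all genes tested. Of the ligands, *TGFB3* was at 104, 57.1 and 64.2 in parental and 174, 175 and 225 in resistant libraries, 2.55-fold higher (adjusted p = 0.00148, limma), and *TGFB1*, under the minimum mean, was at 5.04, 2.34 and 1.83 in parental and 5.85, 22.6 and 10.1 in resistant libraries. The type I receptor *TGFBR1* was at 1314, 1167 and 1331 in parental and 794, 692 and 738 in resistant libraries, 58.4% of its parental mean (adjusted p = 0.000126, limma), but its 50 neighbours had a median log2 fold change of -0.93, and relative to them it was at 0.17 (0.135). The type II receptor *TGFBR2* was under the minimum mean. *SMAD3* was at 461, 520 and 424 in parental and 1143, 1337 and 1070 in resistant libraries, 2.53-fold higher (adjusted p = 1.62e-05, limma), while *SMAD2* was at 1967 ± 55.8 and 1926 ± 64.3 (SD, n = 3 each) and did not pass. The inhibitory *SMAD6* was higher, from 27.6 ± 10.9 to 85.5 ± 30.7, and *SMAD7* did not pass.

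All 9 genes of corepressors known to work with ZEB and SNAIL proteins were tested, of which 5 were lower and 2 higher. *EZH2*, the methyltransferase of Polycomb repressive complex 2, was at 5940, 5332 and 5749 in parental and 3653, 3215 and 3351 in resistant libraries, 60.0% of its parental mean (adjusted p = 3.71e-05, limma). Its log2 fold change of -0.74 was -0.41 relative to its neighbours and still passed. *HDAC1*, a histone deacetylase, and the corepressor *CTBP2* were lower by less, with log2 fold changes of -0.38 and -0.32. The other two lower, *CTBP1* and *KDM1A*, lost their calls in 2 and 9 of the 14 alternatives. *SIN3A* (0.40) and *RCOR1* (0.41) were higher, but relative to their neighbours they were at -0.07 and 0.09 and neither passed.

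**Figure D4:**
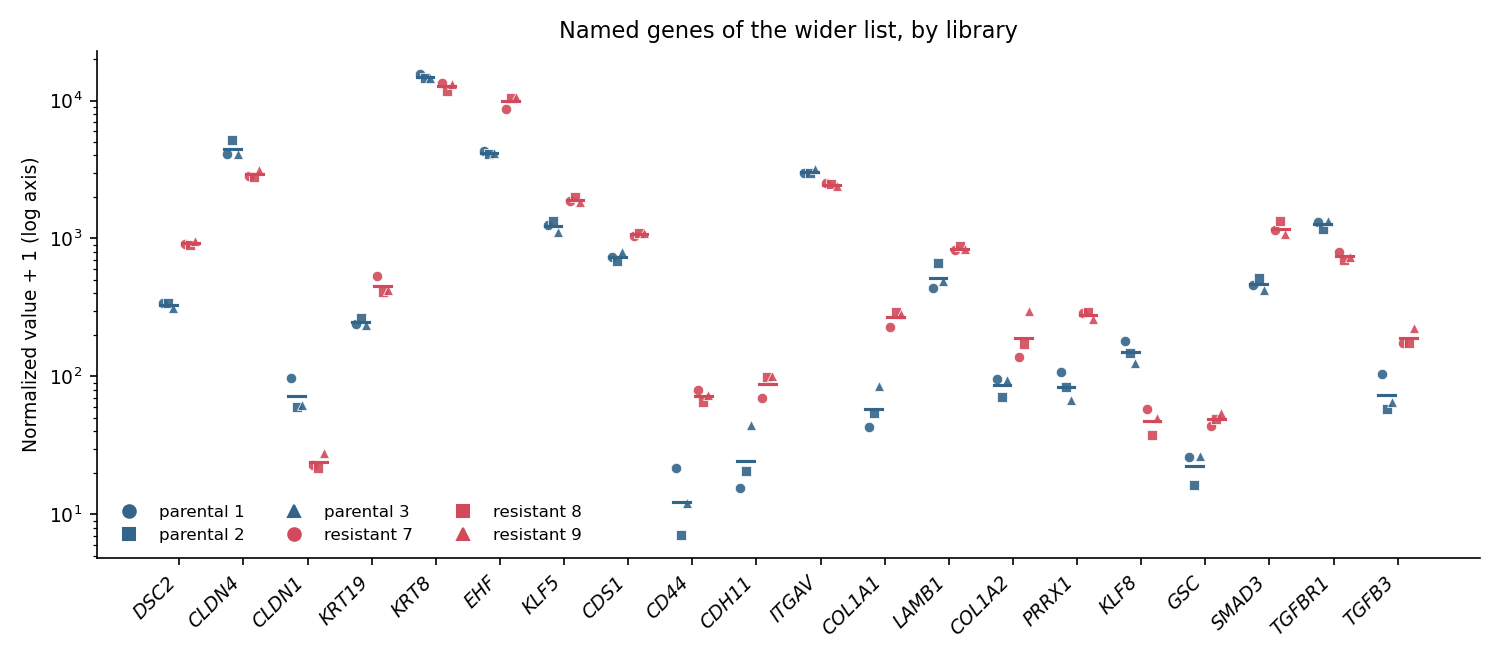
Value in each library (log axis, normalized value + 1) of the named genes of the wider list, corepressors aside, that passed the test, with parental libraries in blue, resistant libraries in red and a short line at each group's geometric mean. *DSC2*, *EHF*, *COL1A1*, *PRRX1* and *SMAD3* are higher in every resistant library, and *CLDN1*, *KLF8* and *TGFBR1* are lower in every one.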

How the data were processed

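RNA-seq of 3 parental and 3 onvansertib-resistant H526 libraries was analysed from gene values deposited by the authors. They trimmed reads with Trimmomatic 0.38, aligned and quantified them with STAR and RSEM 1.3.1 on GRCh38 with Gencode v43, and normalized them with DESeq2 1.30.0, so the deposited values are a normalized signal, never negative, and not whole reads: of the low values, 56.2% to 64.7% per library were whole multiples of the value of 1 read, within 0.1 of a read. Count tests were therefore not used, and limma took the place of the study's test. The depth was the sum of values divided by the value of 1 read.

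From these, 47 second copies of pseudoautosomal genes were left out of 62757 rows. Symbols and positions came from Gencode v44 (62639 of 62710 rows matched). Genes with a mean of at least 10 were tested on log2(value + 1), a scale that understates the change of low genes, with limma 3.58.1 (R 4.3.3), an intensity trend and condition as the only term. Single genes had an exact two-sided permutation test (scipy 1.17.1, Python 3.11.15). Errors are SD over libraries unless marked SE. The fit was tested on simulated data. The alternatives numbered 14: a pseudocount of 0.1 or 10, no filter or a higher one (mean of 50), upper-quartile scaling, quantile normalization, no trend, centring on the median of 51 neighbouring genes, and each of the 6 libraries left out.

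The members and lists were chosen with earlier results of these data known. Of the wider list, up to 3 tested genes per role with the smallest p were named, with all members and their antisense or divergent neighbours. Further genes were chosen after their values were seen.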

Additional observations from a re-analysis of the deposited data

How the results depend on the processing

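No paired analysis was possible because the parental and resistant libraries carry different numbers and the labels do not say which harvests belong together. *CDH2* and *ZEB2* passed, in the same direction, in 14 of 14 alternatives. The number of members higher was 1 (*VIM*), but 0 with no filter, with a minimum mean of 50, with quantile normalization and without the trend, and 2 (with *SNAI1*) with upper-quartile scaling. It ranged from 0 to 1 when each library was left out. That 1 was *SNAI1*, not *VIM*, without parental library 2. The number lower was 2 or 3: *CDH2* and *ZEB2*, with *EPCAM* or, without parental library 3, *FN1* as the third. Of the wider list, 13 genes were lower with upper-quartile scaling and 12 without the trend, against 20. *CDH1*, which never passed, took a log2 fold change from -0.034 (without parental library 2) to 0.074 (without parental library 3) when each library was left out, and -0.018 without resistant library 7. Relative to the 51 neighbouring genes the direction turned for *KRT8* (0.41), *KRT18* (0.48), *TGFBR1* (0.17) and *SIN3A* (-0.074). Of the 23 passing genes of the wider list named for the smallest p in their role, 17 passed under every alternative that tested them. That choice favours stable calls. Among the other calls, *CLDN7* lost its own in 10 alternatives, *ITGB1* and *KDM1A* in 9, and *PKP2* and *COL4A2* in 8. *DSP*, *DSG2*, *OCLN*, *MARVELD2*, *GRHL2*, *SPINT2*, *SMAD6* and *CTBP2* kept theirs in every alternative. Upper-quartile scaling moved the median log2 fold change of all genes to 0.05. The causes of these changes were not tested. Depth limits *ZEB1*, *SNAI2*, *TWIST1* and parental *VIM*, which lie near 3 reads.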

Other observations

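Markers of other cell types were at or near 0 where they define leukocytes and endothelium: *CD3E* and *CDH5* were at 0 in all 6 libraries, and 5 of 8 such markers were at or under 3 reads in all of them. The exception was *VWF*, a clotting protein of endothelium, which rose from 276 ± 54.5 to 465 ± 22 (SD, n = 3 each; log2 fold change 0.77; adjusted p = 0.00231, limma).

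Of 9 tuft cell genes, 6 were higher and 2 lower in resistant cells. *TRPM5*, the cation channel of tuft cells, was at 149, 227 and 191 in parental and 524, 754 and 650 in resistant libraries (log2 fold change 1.77; adjusted p = 5.34e-05, limma), and *AVIL*, encoding advillin, was lower, at 20954 ± 813 and 12018 ± 264 (SD, n = 3 each; -0.80). Among the neuroendocrine genes, *INSM1* was at 6729, 5918 and 5626 in parental and 1191, 1385 and 1183 in resistant libraries (log2 fold change -2.28; adjusted p = 1.64e-07, limma), beside the -0.81 of *CDH2*.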
